A study of Mus musculus with 9 samples.

Results

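The Cyp4 fatty acid omega-hydroxylases measured in this study were 6 of 7 listed mouse genes (Cyp4a10, Cyp4a12a, Cyp4a12b, Cyp4a14, Cyp4f13, Cyp4f14 and Cyp4v3), read by 7 of the 45037 probe sets tested on the array. They were found as every probe set whose annotation carries 1 of those symbols. Cyp4v3 had 2 probe sets and Cyp4a12a, Cyp4a14, Cyp4f13 and Cyp4f14 had 1 each. The only probe set of Cyp4a10 is also annotated to its neighbour Cyp4a31, so its signal cannot be assigned to either gene and is called Cyp4a10/Cyp4a31 here. No probe set used here is annotated to Cyp4a12b, the near copy of Cyp4a12a, and its level was not analysed here. The genes were selected on measured values, the signals of db/db against BKS liver. The differences between the genotypes are therefore a description for them. Their calls in the fit over all probe sets are counted beside the share of all probe sets, and again under other settings in the closing section. Nothing is read from them.

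Liver RNA was measured in 4 samples of db/db mice (strain BKS.Cg-Leprdb, which carries the db mutation of the leptin receptor) and 5 samples of BKS mice (C57BL/KSlepr+/+, the intact receptor on the same background). All were male, 14 weeks old, littermates per the design text, and kept on ordinary chow. By that age db/db mice have become obese and diabetic with a fatty liver. Each sample was hybridised to 1 array in a single colour. Whether the numbered samples of a genotype are separate mice is not in the labels, so every error and p-value reflects only how these samples vary. In pieces of whole liver, fewer cells of a type and less RNA per cell cannot be told apart.

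Enzymes of the CYP4 family sit in the membrane of the endoplasmic reticulum and add a hydroxyl group to the last, omega, carbon of fatty acids. Alcohol and aldehyde dehydrogenases turn the product into a dicarboxylic acid, which peroxisomes shorten by beta-oxidation. In rodent liver the Cyp4a genes are switched on by PPAR alpha, the nuclear receptor that senses fatty acids. Members of the Cyp4f branch act more on leukotrienes and on the side chain of vitamin E. By their order in the RefSeq annotation, Cyp4a12a, Cyp4a12b, Cyp4a14, Cyp4a10 and Cyp4a31 lie in 1 cluster on chromosome 4. Cyp4f14 and Cyp4f13 are neighbours on chromosome 17, and Cyp4v3 is on chromosome 8.

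The arrays fell into 2 sets by their signal for 18S ribosomal RNA, a property that the labels do not mention. The geometric mean of the 3 control probe sets for 18S was 941 to 6922 on 4 arrays (db/db 3, db/db 4, BKS 4 and BKS 5) and 12.5 to 22.8 on the other 5. Both sets hold both genotypes, so values within each set are given beside the pooled ones. Median signals of the arrays were 67.2 to 96.4 in db/db and 76.9 to 110.7 in BKS samples. Lepr was dim on its 4 probe sets, 8.40 to 194.5 in db/db and 2.30 to 133.2 in BKS samples. The db mutation alters splicing, so these signals do not check the genotype. Of 7 hepatocyte markers, Alb and Ttr among them, none passed the test between the genotypes (limma, adjusted p at least 0.185), and their summed normalised signal was 225055 to 248991 in db/db and 241741 to 247995 in BKS samples. Quantile normalization gives the brightest probe sets near-equal values on every array, so these sums cannot compare hepatocyte content. The deposited signal of Alb ran from 29870 to 67683 in db/db and from 31501 to 72423 in BKS samples. Kidney tubules also express Cyp4a genes, and their 6 markers (Umod, Slc34a1, Kap and others) summed to 304 to 477 in db/db and 254 to 425 in BKS samples, with no call. Several of these were dim, such as Umod with 1.40 to 41.7 in db/db and 2.80 to 69.6 in BKS samples. Their sums may be mainly background. Markers of 9 other cell types gave 1 call, the red cell gene Alas2 (-1.20, adjusted p = 0.0151).

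**Figure D1:**
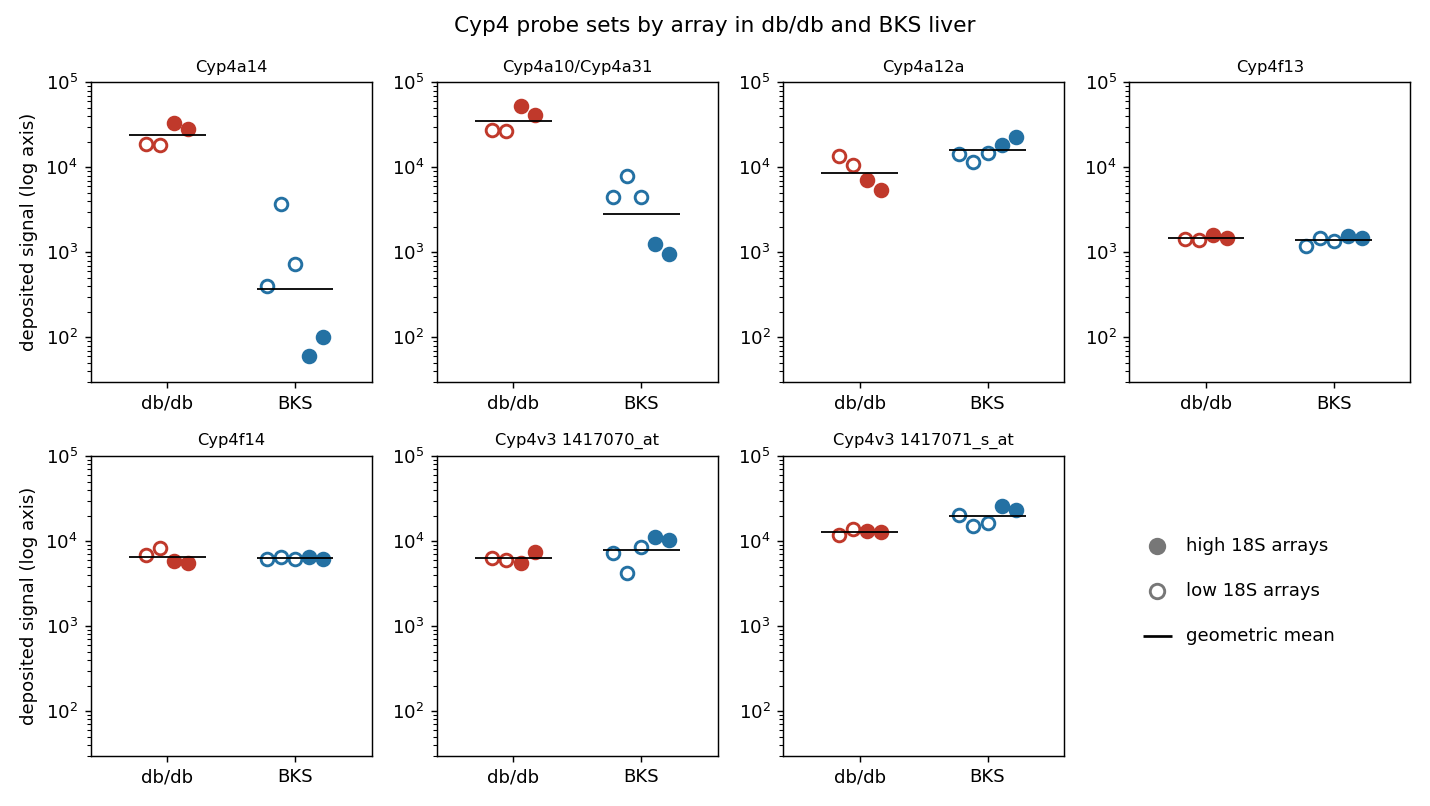
Deposited signal (log axis) of each Cyp4 probe set on each array, db/db on the left and BKS on the right of every panel. Filled points are arrays with high and open points arrays with low 18S signal, and bars are geometric means. Cyp4a14 and Cyp4a10/Cyp4a31 were higher on all 4 db/db arrays than on any BKS array, and both were lowest on BKS 4 and BKS 5.

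Cyp4a14, an omega-hydroxylase of medium and long chain fatty acids, was bright on every db/db array. Its signals were 18635, 18433, 32836 and 28480 on db/db 1 to 4, and 399, 3686, 728, 61.3 and 101 on BKS 1 to 5. The lowest db/db signal was above the highest BKS signal, and the BKS arrays differed among themselves by 60.1-fold, against 1.78-fold among the db/db arrays. On the normalised log2(signal + 16) scale Cyp4a14 averaged 14.56 ± 0.16 in db/db (SD, n = 4) and 8.68 ± 2.19 in BKS samples (SD, n = 5). The difference was 5.89 (SE 0.79), or 59.2-fold. Its size rested in part on single arrays and stood at 6.75 without BKS 2 and 5.25 without BKS 4. It was 8.00 within the high 18S arrays and 4.43 within the low ones. On BKS 4 and BKS 5 the signals of 61.3 and 101 lay near the array medians of 76.9 and 78.0, and there are no detection calls. Values that rest on those arrays, the 8.00 above all, may be limited by background and are not exact.

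Cyp4a10/Cyp4a31, which hydroxylate the same kind of fatty acid, followed the same pattern at a smaller ratio. The probe set read 27247, 26798, 52044 and 41328 on db/db 1 to 4, and 4473, 7988, 4458, 1253 and 960 on BKS 1 to 5. Again the genotypes did not overlap, BKS 2 was the highest BKS array, and BKS 4 and BKS 5 were the lowest. The normalised mean was 15.18 ± 0.08 in db/db and 11.57 ± 1.34 in BKS samples (SD, n = 4 and 5), a difference of 3.61 (SE 0.49), or 12.2-fold. Within the high 18S arrays the difference was 5.08 and within the low ones 2.61. The small SD in db/db is that of normalised values, and the deposited signals still spanned 1.94-fold there.

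Cyp4a12a, the androgen-dependent Cyp4a of male mouse liver, which omega-hydroxylates arachidonic acid, lay on the other side. It read 13679, 10648, 7085 and 5458 on db/db 1 to 4, and 14180, 11649, 14719, 18513 and 22982 on BKS 1 to 5. The genotypes overlapped, since db/db 1 was above BKS 2, while db/db 3 and db/db 4 were the lowest of the 9 arrays. The normalised mean was 13.12 ± 0.71 in db/db and 13.95 ± 0.22 in BKS samples (SD, n = 4 and 5), and the difference was -0.84 (SE 0.25). It came to -1.58 within the high 18S arrays and -0.14 within the low ones. Whether the probes also bind Cyp4a12b RNA was not tested.

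Cyp4f13 and Cyp4f14, the pair on chromosome 17, differed little between the genotypes. Cyp4f13 read 1445, 1395, 1600 and 1458 on db/db 1 to 4, and 1180, 1465, 1363, 1556 and 1488 on BKS 1 to 5. Cyp4f14, which hydroxylates the inflammatory lipid leukotriene B4 and vitamin E in mice, read 6819, 8335, 5875 and 5473 on db/db 1 to 4, and 6193, 6492, 6137, 6497 and 6118 on BKS 1 to 5. The genotypes overlapped in both genes. The log2 difference was 0.07 (SE 0.14) for Cyp4f13 and 0.03 (SE 0.15) for Cyp4f14, and both fell on either side of 0 under other settings (-0.01 and -0.15 in a fit of the high 18S arrays alone). The SD was 0.11 in db/db and 0.17 in BKS samples for Cyp4f13, and 0.35 in db/db and 0.10 in BKS samples for Cyp4f14.

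Cyp4v3, the mouse form of human CYP4V2, a fatty acid hydroxylase that is mutated in a crystalline dystrophy of the human retina, was read by 2 probe sets. On the probe set with the suffix _s_at it read 11871, 14074, 12997 and 12834 on db/db 1 to 4, and 20230, 14887, 16323, 25613 and 23232 on BKS 1 to 5. These genotypes did not overlap, although db/db 2 and BKS 2 lay close together. On the other it read 6339, 6020, 5574 and 7507 on db/db 1 to 4, and 7161, 4167, 8638, 11117 and 10444 on BKS 1 to 5, and here BKS 2 was the lowest of all arrays. The log2 difference was -0.56 (SE 0.12) on the first and -0.31 (SE 0.21) on the second. Within the high and low 18S arrays it was -0.80 and -0.35 on the first, and -0.65 and -0.07 on the second.

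In the fit over all probe sets, 2 of the 7 were past an adjusted p of 0.05 and higher in db/db (Cyp4a14 and Cyp4a10/Cyp4a31), where 1.58% of all probe sets were. Cyp4v3 on its _s_at probe set was past it and lower, where 1.19% of all probe sets were. Cyp4v3 was no longer past it when BKS 1, BKS 4, BKS 5, db/db 3 or db/db 4 was left out. For 3 of the 7 probe sets the genotypes did not overlap, a pattern of 6.52% of all probe sets. The median difference of the 7 was 0.03, against -0.01 over all probe sets, with members on both sides of 0.

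**Figure D2:**
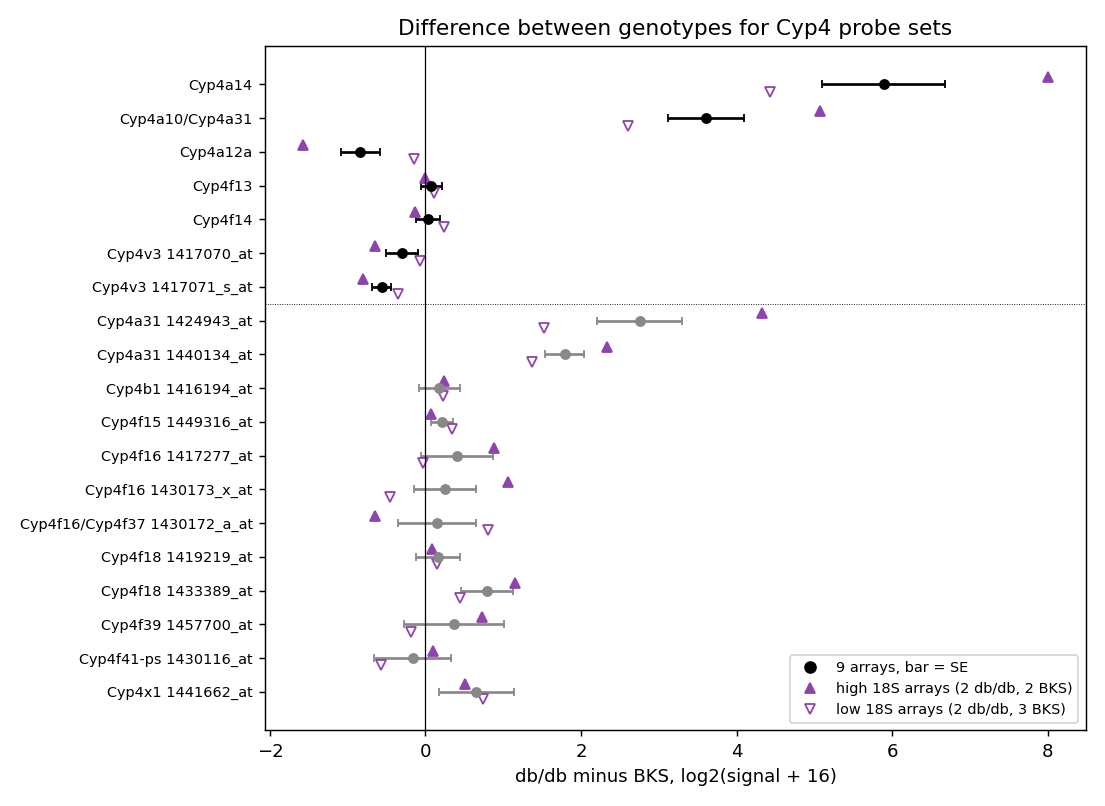
Difference db/db minus BKS on the log2(signal + 16) scale for the Cyp4 probe sets (black, above the dotted line) and for probe sets of other Cyp4 genes (grey), with bars for the SE over 9 arrays. Triangles give the difference within the high 18S arrays (filled) and the low 18S arrays (open). For Cyp4a14 it ran from 4.43 in the low to 8.00 in the high 18S arrays.

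RefSeq start windows (GRCm38.p6, from 250 bases before to 50 bases after the annotated start) were at hand for Cyp4f13, Cyp4f14 and Cyp4v3, with 4 windows for Cyp4f14 and 1 for each of the others. Cyp4a10, Cyp4a12a, Cyp4a12b and Cyp4a14 had none. Each window was searched on both strands for AGGTCANAGGTCA, the repeat that PPAR alpha binds with its partner RXR, for its single element AGGTCA, which the repeat contains, and for TTCNNNGAA, the core bound by STAT factors such as STAT5, which acts downstream of growth hormone. Of 32851 windows of this length, 0.0396% hold the repeat, 16.3% the single element and 8.3% the STAT core. None of the 6 windows held the repeat or the single element. The window of Cyp4f13 held 1 STAT core, printed in capitals. That of Cyp4v3 and all 4 of Cyp4f14, which are not printed, held none. No link between these matches and the level of a gene was tested.
Cyp4f13 (chr17:32947312-32947611, minus strand): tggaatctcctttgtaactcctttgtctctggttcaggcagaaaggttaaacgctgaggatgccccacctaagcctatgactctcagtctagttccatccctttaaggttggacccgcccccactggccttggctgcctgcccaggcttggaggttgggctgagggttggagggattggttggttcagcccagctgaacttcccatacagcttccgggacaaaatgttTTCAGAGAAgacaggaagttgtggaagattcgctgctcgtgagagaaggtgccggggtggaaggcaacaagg
Cyp4v3 (chr8:45333114-45333413, minus strand): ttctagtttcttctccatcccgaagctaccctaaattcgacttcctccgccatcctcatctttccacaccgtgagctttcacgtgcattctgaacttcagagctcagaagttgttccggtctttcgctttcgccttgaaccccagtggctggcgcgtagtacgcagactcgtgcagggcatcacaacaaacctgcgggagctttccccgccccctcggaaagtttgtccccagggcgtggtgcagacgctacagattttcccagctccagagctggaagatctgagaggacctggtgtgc
A match of letters is a description of the window and shows no binding.

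The spread within each genotype was a separate matter from the contrast on which the genes were picked. Among BKS samples the probe sets of Cyp4a14 and Cyp4a10/Cyp4a31 moved in company, except on BKS 1, where they stood at -0.07 and 0.64. BKS 2 stood above the BKS mean by 3.24 for Cyp4a14 and 1.55 for Cyp4a10/Cyp4a31. BKS 4 stood at -2.28 and -1.20 for these, and BKS 5 at -1.68 and -1.61. The dimmer probe set of Cyp4a31 had the same signs, with 1.17 on BKS 2, -1.02 on BKS 4 and -1.04 on BKS 5. Its BKS signals, 2.8 to 75.5, were under the median of each array, so these sizes are not exact. The brighter probe set of Cyp4a31 was at 0.32 on BKS 2, -0.34 on BKS 4 and -0.45 on BKS 5, and was highest on BKS 1 (0.47). On the quantile normalised scale Cyp4a12a deviated by no more than 0.36 on any BKS array. It was at -0.25 on BKS 2, -0.06 on BKS 4 and 0.36 on BKS 5.

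**Figure D3:**
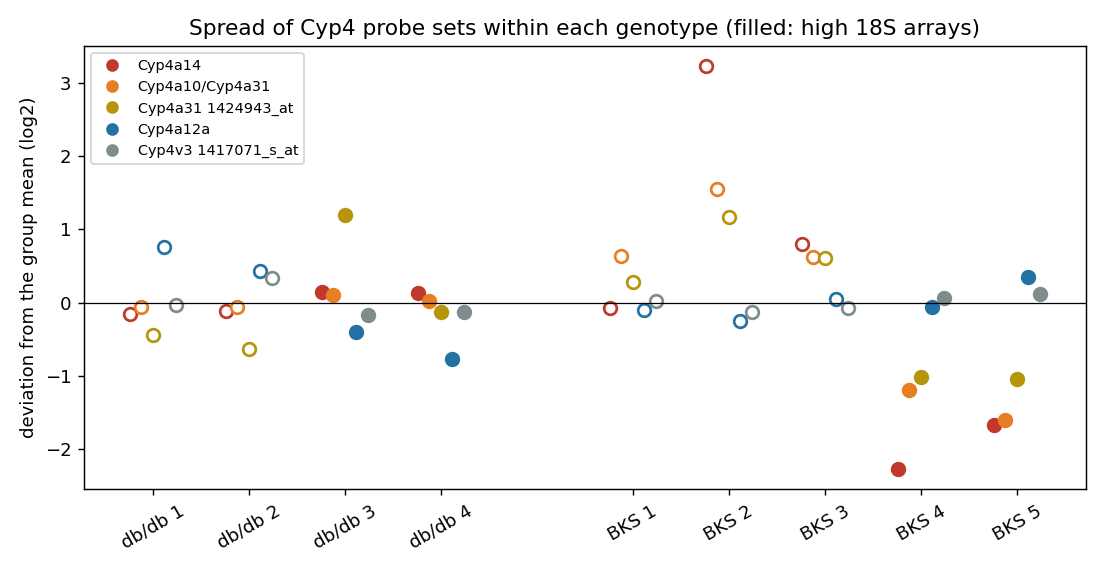
Deviation of each array from the mean of its own genotype (log2) for 5 Cyp4 probe sets, db/db arrays on the left and BKS arrays on the right, with filled points for arrays with high 18S signal. Cyp4a14, Cyp4a10/Cyp4a31 and the dimmer probe set of Cyp4a31 were high together on BKS 2 and low together on BKS 4 and BKS 5. On this normalised scale Cyp4a12a varied more among the db/db arrays.

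BKS 4 and BKS 5 are the BKS arrays with high 18S signal. The difference between the 18S sets within each genotype was taken from 1 fit with genotype, 18S set and their interaction, which was added after these values were seen. It is a description for the members, since a test would use the values that prompted it. Among BKS samples, Cyp4a10/Cyp4a31 was at -2.34 on the high minus the low 18S arrays (SE 0.24, means 10.17 on 2 and 12.51 on 3 arrays), and at -2.05 without BKS 2. Cyp4a14 was at -3.30 (SE 0.63, means 6.70 and 9.997), at -2.34 without BKS 2 and at -4.04 without BKS 1. With a single high 18S array left it was -2.99 without BKS 4 and -3.59 without BKS 5. Of all probe sets 2.58% were lower on the high 18S arrays in this comparison, past an adjusted p of 0.05. Cyp4a12a was at 0.25 (SE 0.18) among BKS samples, 0.88 with centring on the median and 0.62 with the deposited scaling, so its size depends on the scaling.

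Among db/db samples Cyp4a12a was at -1.18 on the high minus the low 18S arrays (SE 0.19, means 12.53 and 13.71 on 2 arrays each), in a comparison where 0.366% of all probe sets were lower past an adjusted p of 0.05. It ran from -1.36 to -0.99 with 1 db/db array left out, which leaves a single array on 1 side, and was -0.77 with centring on the median. Cyp4a14 was at 0.27 (SE 0.69) with quantile normalization, 0.91 with centring and 0.72 with the deposited scaling. Cyp4a10/Cyp4a31 was at 0.13 (SE 0.26), 0.96 and 0.78 under the same 3 scalings, so its size depends on the scaling. In the same comparison 3 of 16 measured male-biased liver genes were lower (limma), where 0.324% of genes were: Slco1a1, an organic anion transporter (-4.37), Elovl3, a fatty acid elongase (-1.84), and Cyp2d9, a steroid hydroxylase (-1.68). Among BKS samples 1 of the 16 was lower on the high 18S arrays, Scara5 (-1.50), where 1.64% of genes were. Another was higher there, Ugt2b38 (1.42). All of these genes were named after their values were seen, and no cause was tested.

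Whether the effect of genotype differed between the 18S sets was tested by the interaction in that fit, so its p-values are no independent evidence. For Cyp4a10/Cyp4a31 it was 2.47 (SE 0.35, limma adjusted p = 0.0571), for Cyp4a14 3.57 (SE 0.93, adjusted p = 0.536) and for Cyp4a12a -1.43 (SE 0.26, adjusted p = 0.236). None of the 7 passed (limma), and 5 of 45037 probe sets passed in all (0.0111%). An unadjusted limma p under 0.05 was found for 3 of the 7 and for 2919 of the 45037 probe sets. For Cyp4a10/Cyp4a31 the adjusted p ran from 0.00319 with the deposited scaling to 0.408 without db/db 1. Pooled over both genotypes, the difference between the 18S sets passed for none of the 7 (limma), where 5.35% of all probe sets passed. The labels tie the 18S signal to no step of the work, and its part in these differences was not tested.

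Genes most like each member over the 9 arrays were ranked by the root mean square difference of their log2 values after each probe set was centred on its own mean. Nearest to Cyp4a10/Cyp4a31 was Cyp2c39, a cytochrome P450 (0.51), followed by the dimmer probe set of Cyp4a31 (0.66). Nearest to Cyp4a14 were the acyl-CoA thioesterase Acot3 (1.04) and the fatty acid transporter Cd36 (1.43), which both followed it less closely. Cyp4a12a had Cntn2 (0.16) and Nav2 (0.21) beside it, both dim. Cyp4v3 on its _s_at probe set had Nat8f1 and Mgat5 (0.11 each), and Cyp4f13 had Igfbp4 and Bco2 (0.05 and 0.07). Cyp4f14 had Apobec2 and Serf2 (0.06 and 0.09). Apobec2 was dim, with means of 4.70 in db/db and 4.73 in BKS samples. Genes that hardly vary are close to each other on this measure. The centring keeps the difference between the genotypes, on which the members were selected. For Cyp4a10/Cyp4a31 and Cyp4a14 the ranking therefore favours genes with a like difference (Cyp2c39 3.46, Acot3 5.75 and Cd36 4.69). It is no separate evidence of a link to them.

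Of 7 other Cyp4 genes with a probe set of their own, Cyp4a31 rose in db/db liver and the other 6 did not pass, where 2.23% of genes rose and 1.89% fell (limma, each gene by its brightest probe set). Cyp4a31 read 851, 1486, 1758 and 1029 on db/db 1 to 4, and 500.2, 475, 379, 235 and 225 on BKS 1 to 5, with no overlap. The difference was 1.79 (SE 0.26, limma adjusted p = 0.00122), and on its dimmer probe set it was 2.75 (SE 0.55, adjusted p = 0.0131). On the dimmer probe set the BKS signals, 2.8 to 75.5, were under the median of each array, so the 2.75 is not exact. RNA of Cyp4a10 or of other near copies could add to either probe set, which was not tested. Cyp4f15, next to Cyp4f14, was at 0.21 (SE 0.14, adjusted p = 0.587) and Cyp4b1, expressed mainly in lung, at 0.18 (SE 0.26, adjusted p = 0.854). Cyp4f16, Cyp4f18, Cyp4f39 and Cyp4x1 were dim, with differences of 0.40 (SE 0.47), 0.79 (SE 0.33), 0.37 (SE 0.64) and 0.65 (SE 0.49).

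Among genes of electron donors of microsomal P450 enzymes and of related proteins, none of 4 measured passed (limma, adjusted p at least 0.819). Cytochrome b5 Cyb5a stood at 0.08 (SE 0.11) and its outer mitochondrial form Cyb5b at 0.02 (SE 0.11). The b5 reductase Cyb5r3 was at -0.04 (SE 0.13) and the heme-binding partner Pgrmc1 at 0.05 (SE 0.11). The gene of P450 reductase, Por, had no probe set of its own. Among 10 genes of the alcohol and aldehyde steps, each read by its brightest probe set, 1 rose and none fell (median 0.11). For Aldh9a1, an aldehyde dehydrogenase, 1 of 2 probe sets passed (0.74), while the brightest was at -0.09. The gene that rose was Aldh3a2, the fatty aldehyde dehydrogenase of the endoplasmic reticulum, which averaged 13.3 in db/db and 11.5 in BKS samples, a difference of 1.81 (SE 0.12, limma adjusted p = 1.74e-06).

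In the peroxisomal oxidation of dicarboxylic acids 5 of 14 measured genes rose and 1 fell (median 0.44). The largest rises were those of Abcd2, a peroxisomal importer of very long chain acyl-CoA (3.92, SE 0.47, limma adjusted p = 2.85e-04), and Acot4, a thioesterase that frees succinate and other dicarboxylic acids from CoA (3.19, SE 0.27, adjusted p = 1.06e-05). Only 2 of 4 probe sets of Abcd2 passed, and its BKS signals of 6.60 to 50.4 were under every array median, so the size of its rise is not exact. Acot4 read 92.5 to 117.5 on the BKS arrays, near their medians, so its size is not exact either. Nudt7, a peroxisomal CoA hydrolase, fell by 1.27 (SE 0.14, adjusted p = 1.87e-04). The other 3 that rose, named after their values were seen, were the thiolase Acaa1b, Acot8 and Nudt19, by 0.57 to 0.72.

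PPAR alpha itself (Ppara) was at 0.54 (SE 0.20, limma adjusted p = 0.235). Of 14 measured genes of the receptor and its partners 1 rose, Pparg, the related receptor of fat storage (1.46, SE 0.26, adjusted p = 0.00608). Of 21 PPAR alpha targets outside the Cyp4 family 12 rose and none fell (median 0.63), and Acaa1b and Aldh3a2 among them are also counted in the lists above. Aldh3a2 and the retinol saturase Retsat (1.21, SE 0.14, adjusted p = 2.77e-04) had the smallest adjusted p. Within BKS samples, 2 of these 21 were lower on the high 18S arrays, where 1.64% of genes were: the pantetheinase Vnn1 (-1.08, limma adjusted p = 0.0162) and the peroxisome division factor Pex11a (-1.60, adjusted p = 1.15e-04), both named after their values were seen. In the same comparison 1 of the 14 genes of the receptor and its partners was lower, Med1 (-2.11). So was 1 of 19 measured female-biased liver genes.

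Genes that differ between the sexes in mouse liver were also listed, and no link between them and Cyp4a12a was tested. Of 16 measured male-biased genes 15 fell and none rose (median -3.21), with Hsd3b5, a steroid dehydrogenase, at -8.51 (limma adjusted p = 1.12e-08) and Cyp7b1, an oxysterol hydroxylase, at -3.25 (SE 0.17, adjusted p = 1.35e-07). On each db/db array the signal of Hsd3b5, 7.90 to 69.0, was under the array's median, so that size is not exact. Of 19 female-biased genes 16 rose and 1 fell (median 3.92). The rises with the smallest adjusted p were those of Cyp2b9, a cytochrome P450 (6.70, SE 0.27, limma adjusted p = 1.12e-08), and Cyp17a1, a steroid hydroxylase (3.60, SE 0.18, adjusted p = 7.94e-08). On BKS 1, BKS 2 and BKS 5 the signal of Cyp2b9, 44.2 to 66.9, was under the array's median, so the 6.70 is not exact. The cytokine receptor Lifr fell by 1.71 (SE 0.22, limma adjusted p = 4.55e-04). All of these lists were drawn up with results of these data known and are no independent evidence of their direction, and they share 5 measured genes (Aldh3a2, Abcd2, Nudt7, Acaa1b and Ehhadh). In androgen and growth hormone signalling 4 of 10 genes fell, with Hsd17b2, a steroid dehydrogenase, at -1.41 (SE 0.15, adjusted p = 1.24e-04) and Socs2, an inhibitor induced by growth hormone, at -2.67 (SE 0.44, adjusted p = 0.00363). The other 2, named after their values were seen, were the growth hormone receptor Ghr and the transcription factor Onecut1.

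Arachidonic acid, a substrate of Cyp4a12a, is also the source of leukotriene B4, a substrate of Cyp4f14. Of 17 measured genes of arachidonate and leukotriene metabolism 2 rose and none fell (median 0.13). The epoxide hydrolase Ephx1 rose by 0.84 (SE 0.13, limma adjusted p = 0.00209) and the desaturase Fads2 by 1.05 (SE 0.22, adjusted p = 0.0179). The leukotriene genes Alox5, Alox5ap, Lta4h, Ltc4s and Ltb4r1 stood between -0.75 and 0.02, and none passed (limma, adjusted p at least 0.481).

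**Figure D4:**
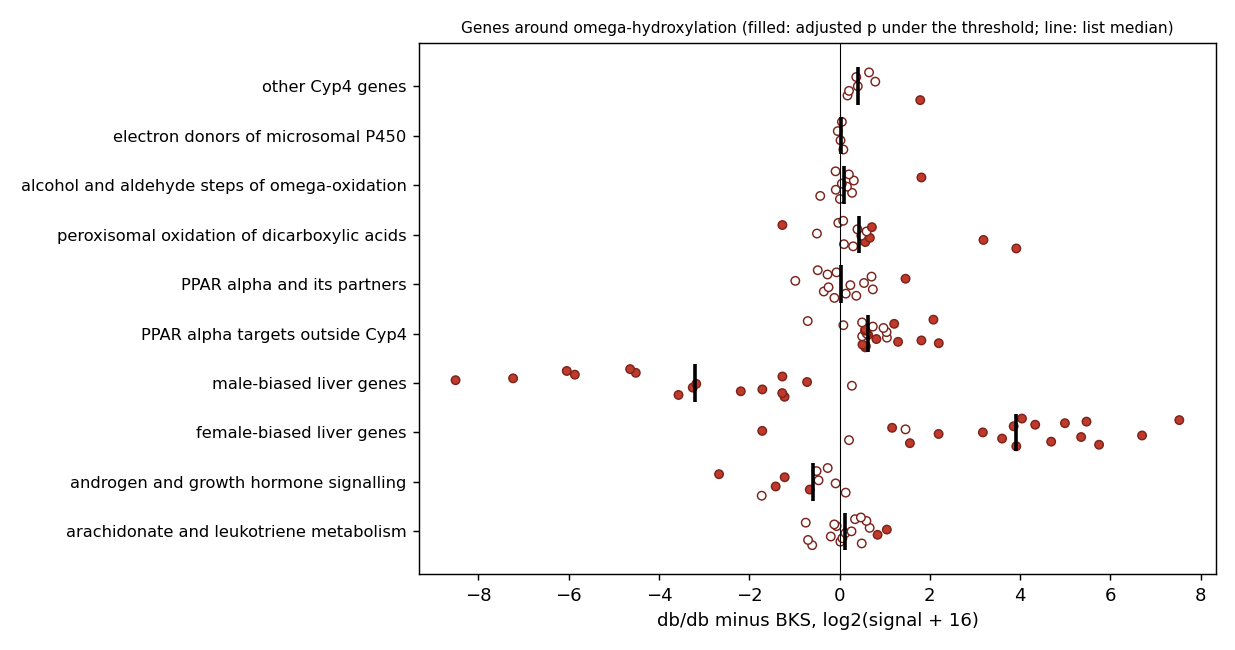
Difference db/db minus BKS (log2) of each measured gene in 10 lists around omega-hydroxylation, each gene by its brightest probe set. Filled points passed an adjusted p of 0.05 and black lines are list medians, which ran from -3.21 for male-biased to 3.92 for female-biased liver genes and lay at 0.63 for PPAR alpha targets outside the Cyp4 family.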

How the data were processed

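The authors' deposited values are linear intensities from 9 Affymetrix arrays, 1 for each of 45101 probe sets, 64 of them controls. Per the labels' protocols, 8 µg of total RNA per sample was labelled with biotin. Software and background correction: not given in the sources used here. The mean after trimming was close to 500.0 on each array, so the authors had scaled them to a common level. There are no detection calls. Array medians of log2(value + 16) spanned 0.61, over a limit of 0.25, so the arrays were quantile normalized (limma 3.58.1, R 4.3.3). All 45037 probe sets were fitted with limma (lmFit, eBayes with trend, two-sided, genotype as the term) with Benjamini-Hochberg adjustment, and a gene rose or fell where the adjusted p was under 0.05. Folds of dim genes are compressed by the added 16.

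By the annotation 34945 of these carried a single symbol, 932 several and 9160 were not listed. Listed genes were read by their brightest probe set with that symbol alone. Of 150 listed genes 127 were measured. The members, the lists, the 18S split and the rules were chosen with earlier results of these data known. The text names all members, other measured Cyp4 genes, lists of 6 or fewer in full, otherwise up to 2 genes a direction with the smallest adjusted p, and the 2 nearest genes to each member. Alternatives were other pseudocounts and scalings, no variance trend, array weights, 18S and replicate blocks, each 18S set alone and each array left out. The steps were tested on simulated data. No 2 arrays held identical values.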

Additional observations from a re-analysis of the deposited data

Results flagged for a closer look

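In 5 of 66 groups of arrays examined, 1 array lay far from the others of its genotype (chance gives about 1 in 20), and none of them was a Cyp4 member. For Cyp4b1, db/db 4 was at 7.74 on the log2 scale and the other db/db arrays at 8.63 to 8.71. For Cyp4f15, db/db 2 was at 12.92 and the others at 12.44 to 12.51. For Hsd3b5, db/db 1 was at 6.46 and the others at 4.61 to 4.76, and BKS 2 was at 12.79 and the other BKS arrays at 13.75 to 13.94. For Nudt7, BKS 2 was at 14.56 and the others at 14.76 to 14.82. BKS 2 is also the BKS array with the highest Cyp4a14 and Cyp4a10/Cyp4a31.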

How the results depend on the processing

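Under 22 alternatives Cyp4a14 stayed higher in db/db, with a log2 difference of 4.21 to 8.40, and under 21 Cyp4a10/Cyp4a31 did, with 2.41 to 5.46. Members were picked on this contrast, so their calls under other settings show only the effect of the processing and are no evidence for the difference. Higher calls among members stayed at 2 except with 1 probe set a gene (1), which leaves out the shared probe set. Lower calls (1) were 0 with median centring, with the deposited scaling only, without a variance trend, in the low 18S arrays and with the replicate block, 2 in the high 18S arrays, and 0 to 1 with 1 array left out. Over all probe sets, 711 higher and 538 lower calls became 431 and 235 with median centring, 225 and 163 without a trend, 1172 and 1014 with the 18S set as a block, 264 and 264 in the low and 368 and 294 in the high 18S arrays, and 411 to 674 and 293 to 528 with 1 array left out (lowest without db/db 3). Listed genes, 35 higher and 20 lower, became 19 and 13 without a trend and 19 higher in the low 18S arrays, with 26 to 34 and 18 to 20 with 1 array left out. Between the 18S sets 0 members were called, or 0 to 1 with 1 array left out. Within BKS there were 2, or 4 with median centring and 1 to 2 with 1 array left out. Within db/db there was 1, or 0 with median centring and 0 to 1 with 1 array left out. By interaction there were 0, or 1 with median centring, 1 with the deposited scaling and 0 to 1 with 1 array left out. These within-genotype and interaction fits were chosen after the data were seen, so their counts of members are no independent evidence, and leaving out an array can leave a single array on 1 side, whose spread is taken from the other groups.

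Some genes that did not pass turned sign: Cyp4f16 to -0.037 and Cyp4f39 to -0.21 in the low 18S arrays, Cyp4f39 also without db/db 3 (-0.12 to 1.14 with 1 array left out), Cyb5a to -0.0256 with the deposited scaling and -0.0295 in the high 18S arrays, Cyb5b to -0.0049 with array weights and -0.0802 in the low 18S arrays (-0.0248 to 0.0508 with 1 array left out), Cyb5r3 to 0.0152 with median centring, 0.10 in the high 18S arrays and 0.0065 with the replicate block (-0.13 to 0.0245 with 1 array left out), and Pgrmc1 to -0.0342 with the deposited scaling (-0.0024 to 0.11 with 1 array left out). The cause of these changes was not tested. In the labels the equal replicate numbers share only a number. Correlations of same-numbered deviations ran from -0.15 to 0.23 over 4 pairs, too few to show or exclude a pairing. With the replicate block, where BKS 5 has no partner and adds nothing to the difference, Cyp4a14 differed by 5.44 and Cyp4a10/Cyp4a31 by 3.17. Depth is unknown for arrays, and their number limits precision.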
